A study of Mus musculus with 14 samples.

Results

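The genes that copy DNA were followed in 4T1 cells with more or less Cnot7. The group held 45 genes listed by their function, out of 19938 genes that the arrays measured through a probe set paired with exactly 1 symbol. Each gene was represented by such a probe set, and where a gene had several, as Pcna and Tk1 had, by the one with the highest mean. The genes were divided by the step they serve into origin recognition and loaders (5), the MCM helicase ring (6), helicase activation (6), clamp and clamp loader (6), polymerases and primase (9), single-strand binding (2), lagging-strand maturation (2), chromatin assembly (2), nucleotide supply (4) and G1/S regulators (3).

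Replication starts from origins that are licensed in G1 phase, when the origin recognition complex, with Cdc6 and Cdt1, loads the MCM ring onto DNA. In S phase kinases and firing factors turn that ring into an active helicase by adding Cdc45 and the GINS complex, and polymerases primed by primase then copy the strands, held to DNA by the Pcna clamp and fed by enzymes that make deoxynucleotides. Most of these genes are transcribed in late G1 and S phase by E2F factors, and their summed level is commonly used as a sign of proliferation in tumor cells.

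The study asked which transcripts follow the level of Cnot7, a catalytic subunit of the CCR4-NOT complex that shortens poly(A) tails. All samples were the 4T1 line, derived from a mammary tumor of a BALB/c mouse, grown in serum-containing medium and stably transduced with lentiviral vectors. The modified cells carried either human FLAG-tagged CNOT7 under the murine Pol2 promoter (over-expression, 3 samples, selected with blasticidin) or a short hairpin RNA against mouse Cnot7, named sh74 (2 samples) or sh75 (3 samples), selected with puromycin. Their controls were cells with a control vector for the over-expression (vector control, 3 samples) and cells with a scrambled hairpin (shScramble, 3 samples). The design text named biological replicates, but the labels gave no separate cultures, clones or dates, so p-values measured only the spread between these samples. In the sample titles, replicates 2 and 3 of sh75 carried the same number, 5, and so did replicates 2 and 3 of over-expressing cells. What that number marks was not stated, so these samples may not be independent.

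All values were RMA log2 intensities, in which a difference of 1 is a 2-fold change and levels of different genes cannot be ranked. A change is given as the fitted difference of group means on that scale. Array medians lay between 6.31 and 6.38. A limit for dim signals was taken from olfactory receptor probe sets at 4.90, and all 45 genes had means above it, between 7.18 for Orc1 and 11.73 for Pcna. Of 15 epithelial markers 15 lay above the limit, as did 13 of 15 mesenchymal, 2 of 6 immune, 3 of 5 endothelial and 3 of 3 adipocyte markers, the last 2 lists with medians of 4.92 and 4.96 near the limit.

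The targeted gene was measured first as a check of the labels. Cnot7 read 8.71 and 9.33 with sh74 and 7.52, 8.51 and 8.07 with sh75, against 10.44, 10.33 and 10.20 with shScramble. The knockdown groups did not overlap their control. Its change was -2.29 (SE 0.26) with sh75 (limma adjusted p = 0.0091) and -1.31 (SE 0.29) with sh74 (adjusted p = 0.279), so that of these the sh75 change alone passed the threshold. It did not pass without shScramble replicate 1 (adjusted p = 0.0546) or replicate 2 (adjusted p = 0.0545). Cnot7 read 10.64, 10.02 and 10.08 in over-expressing cells, against 10.07, 10.52 and 10.15 in vector control cells, a change of 0.00 (SE 0.26). The over-expressed transcript was human and the probe set mouse, and whether the probes read the human transcript was not tested.

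**Figure D1:**
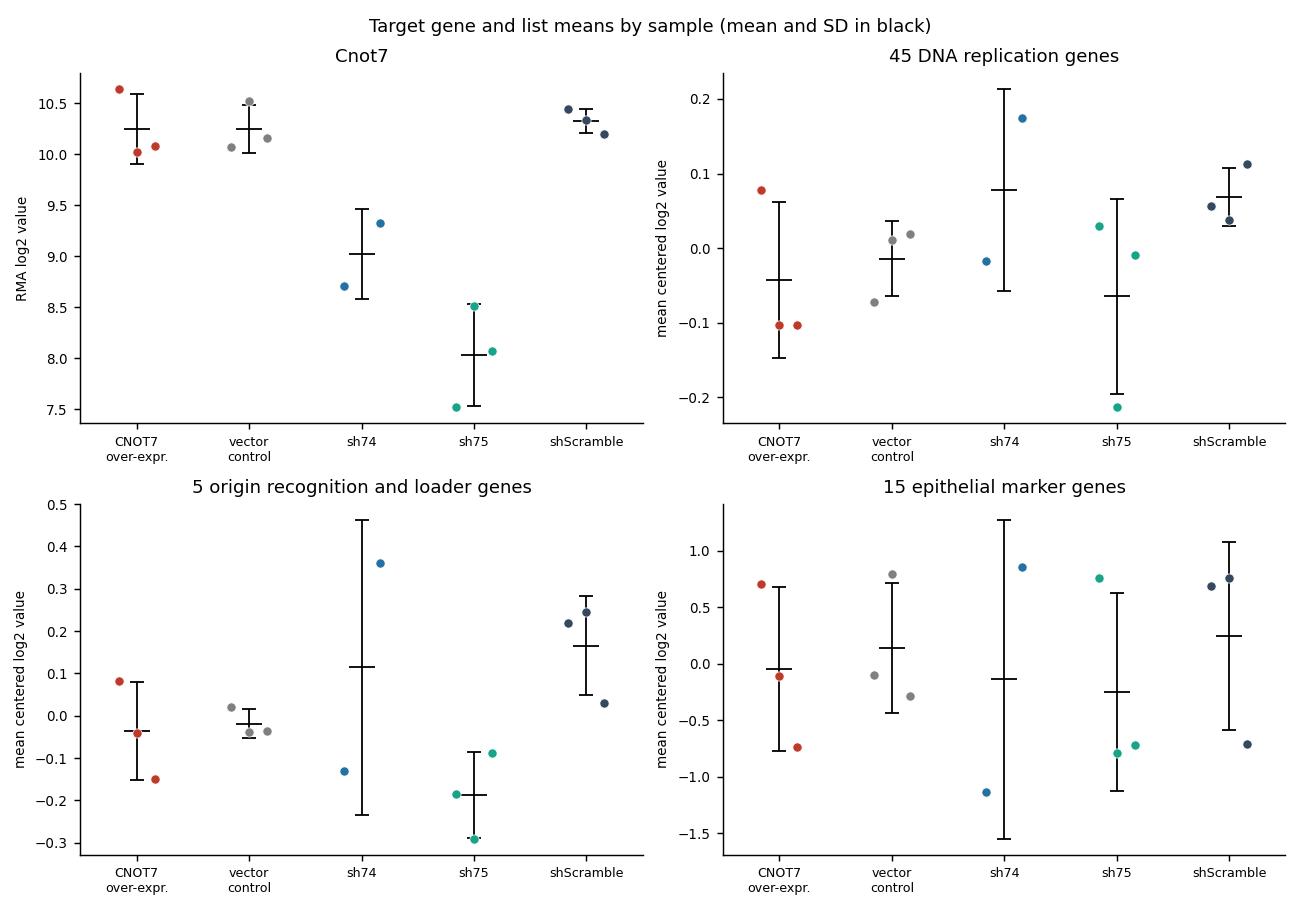
Values by sample for Cnot7 (RMA log2 value) and for the means of the 45 DNA replication genes, the 5 origin recognition and loader genes and the 15 epithelial marker genes (log2 values centered on each gene's mean over 14 samples). Dots are single samples, and the bars in black mark group mean and SD. Cnot7 was lowest with sh75, the replication mean ranged from -0.21 to 0.17, and the epithelial mean of sh74 alone ran from -1.13 to 0.86.

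No DNA replication gene passed the threshold of adjusted p under 0.05 (limma, adjusted over 21789 probe sets) in any comparison. With more CNOT7, 30 of 45 were lower than in vector control cells, with a median of -0.04, beside 46.1% of all probe sets lower and a median of 0.01 over all genes. With sh75, 39 of 45 were lower than with shScramble, with a median of -0.13, beside 50.2% of all probe sets and a median near 0. With sh74, 20 of 45 were lower, with a median of 0.03, beside 48.7% of all probe sets. Both hairpins together gave 33 of 45 lower and a median of -0.06, beside 48.8% of all probe sets. Of the 39 genes lower with sh75, 18 were among the 20 lower with sh74, and the hairpin comparisons share their control samples. With 39 of 45 lower with sh75, most genes of any part of the list would be among them. The overlap is therefore no sign that the hairpins acted alike, and the share of all genes lower with both was not counted. In RNA of whole cultures, fewer cells in S phase and less RNA of these genes per cell cannot be told apart.

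The share called among all probe sets was also small, at 0% with over-expression, 0.0918% with sh75, 0.00918% with sh74 and 0.0184% with both hairpins. At an unadjusted p under 0.05, limma singled out 1 of 45 genes with over-expression (Ccne1, higher; background 2.58% of probe sets), 4 with sh75 (Rrm1, Orc1, Mcm3 and Orc6, all lower; background 8.26%), 0 with sh74 (background 7.33%) and 0 with both hairpins (background 7.3%). Those 4 of 45 genes with sh75, 8.89%, were close to the background share. A plain equal-variance two-group test without moderation singled out 2 with over-expression (Mcm6 and Lig1), 2 with sh75 (Orc6 and Cdt1) and 0 with sh74, and 0 of them after adjustment. The share of all probe sets in that plain test was not counted, so its counts cannot be set against a background. The sample values of sh75 lay wholly below those of shScramble for the 4 genes Mcm3, Orc6, Cdt1 and Rrm1, beside 6.76% of all probe sets, and wholly above for 0, beside 6.71%. With sh74 they lay below for Pold2 and Ccne1, beside 10.6%, and above for Pole, Rpa1, Rrm2 and Tyms, beside 11.4%. With over-expression they lay below vector control for Mcm6 and Lig1, beside 3.42%, and above for 0 genes, beside 4.3%.

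The size of change was bounded for each gene taken by itself. These intervals were not adjusted for the number of genes and treat the samples as independent. In the comparisons of over-expression, sh75 and sh74 with their controls, the 95% interval of the change lay between -1 and 1 for 45 of 45 genes, so a 2-fold change lay outside each interval. The bounds farthest from 0 were -0.87 for Pola1 and 0.86 for Ccne1 with over-expression, -0.87 for Pola1 and 0.56 for Chaf1b with sh75, and -0.75 for Ccne1 and 0.92 for Pola1 with sh74. The median reach of the interval to either side was 0.32 with over-expression and with sh75, and 0.36 with sh74, which had 2 samples.

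**Figure D2:**
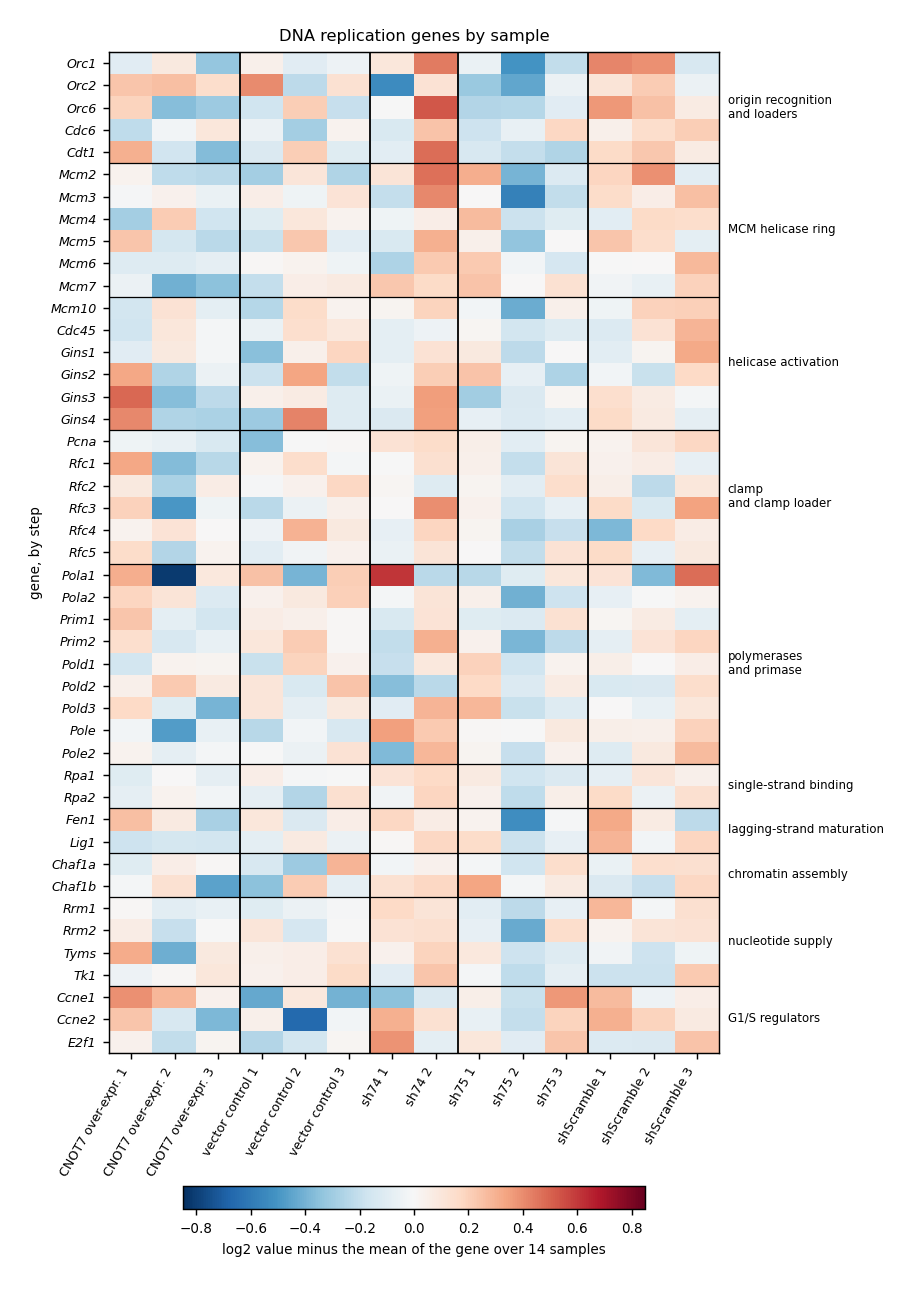
Each of the 45 DNA replication genes (rows, by step) in each of the 14 samples (columns, by group), colored by its log2 value minus its mean over the samples. The column of sh75 replicate 2 is blue for most genes, with 1 of 45 above its own mean, and that of sh74 replicate 2 is red for 39 of 45.

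Samples of a group did not always share a level. Averaged over the 45 genes after centering each gene, the level was -0.02 and 0.17 with sh74 and 0.03, -0.21 and -0.01 with sh75, against 0.06, 0.04 and 0.11 with shScramble. In the over-expression experiment it was 0.08, -0.10 and -0.10 in over-expressing cells, against -0.07, 0.01 and 0.02 in vector control cells. The lowest sample, sh75 replicate 2, had only 1 of 45 genes above its own mean and was the lowest of all 14 samples for 13 of them, whereas the highest, sh74 replicate 2, had 39 above and was the highest for 14. The other sample of sh74 had 18 genes above their mean. Over all genes, sh75 replicate 2 was lowest for 9.81% and sh74 replicate 2 highest for 7.65%. Without sh75 replicate 2, the sh75 median was -0.05 with 30 of 45 genes lower, and 1 gene, Rrm1, kept an unadjusted p under 0.05. Without shScramble replicate 3 it was -0.07 with 34 lower. For sh74 the median was 0.12 without replicate 1, with 10 lower, and -0.11 without replicate 2, with 32 lower. For over-expression the median was -0.01 without replicate 2 and 0.00 without replicate 3, with 23 of 45 lower in each.

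Epithelial marker genes moved more between samples than the replication genes did, and in some samples along with them. The mean of the 15 epithelial markers, centered in the same way, was -1.13 and 0.86 with sh74 and 0.76, -0.79 and -0.72 with sh75, against 0.69, 0.76 and -0.71 with shScramble. It was 0.71, -0.11 and -0.74 in over-expressing cells, against -0.10, 0.80 and -0.28 in vector control cells. In sh74, sh75 and over-expressing cells the sample with the highest epithelial mean was also the one with the highest replication mean, whereas among shScramble samples replicate 3, the lowest in epithelial markers, was the highest in replication genes, and among vector controls replicate 2 was the highest in epithelial markers and replicate 3 in replication genes. The mean of 15 mesenchymal markers was 0.37 and -0.43 with sh74 and 0.04, 0.34 and 0.22 with sh75, against -0.17, -0.57 and 0.19 with shScramble. Means of the immune, endothelial and adipocyte markers stayed between -0.24 and 0.18 in all samples. The part of these cell states in the results was not tested.

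**Figure D3:**
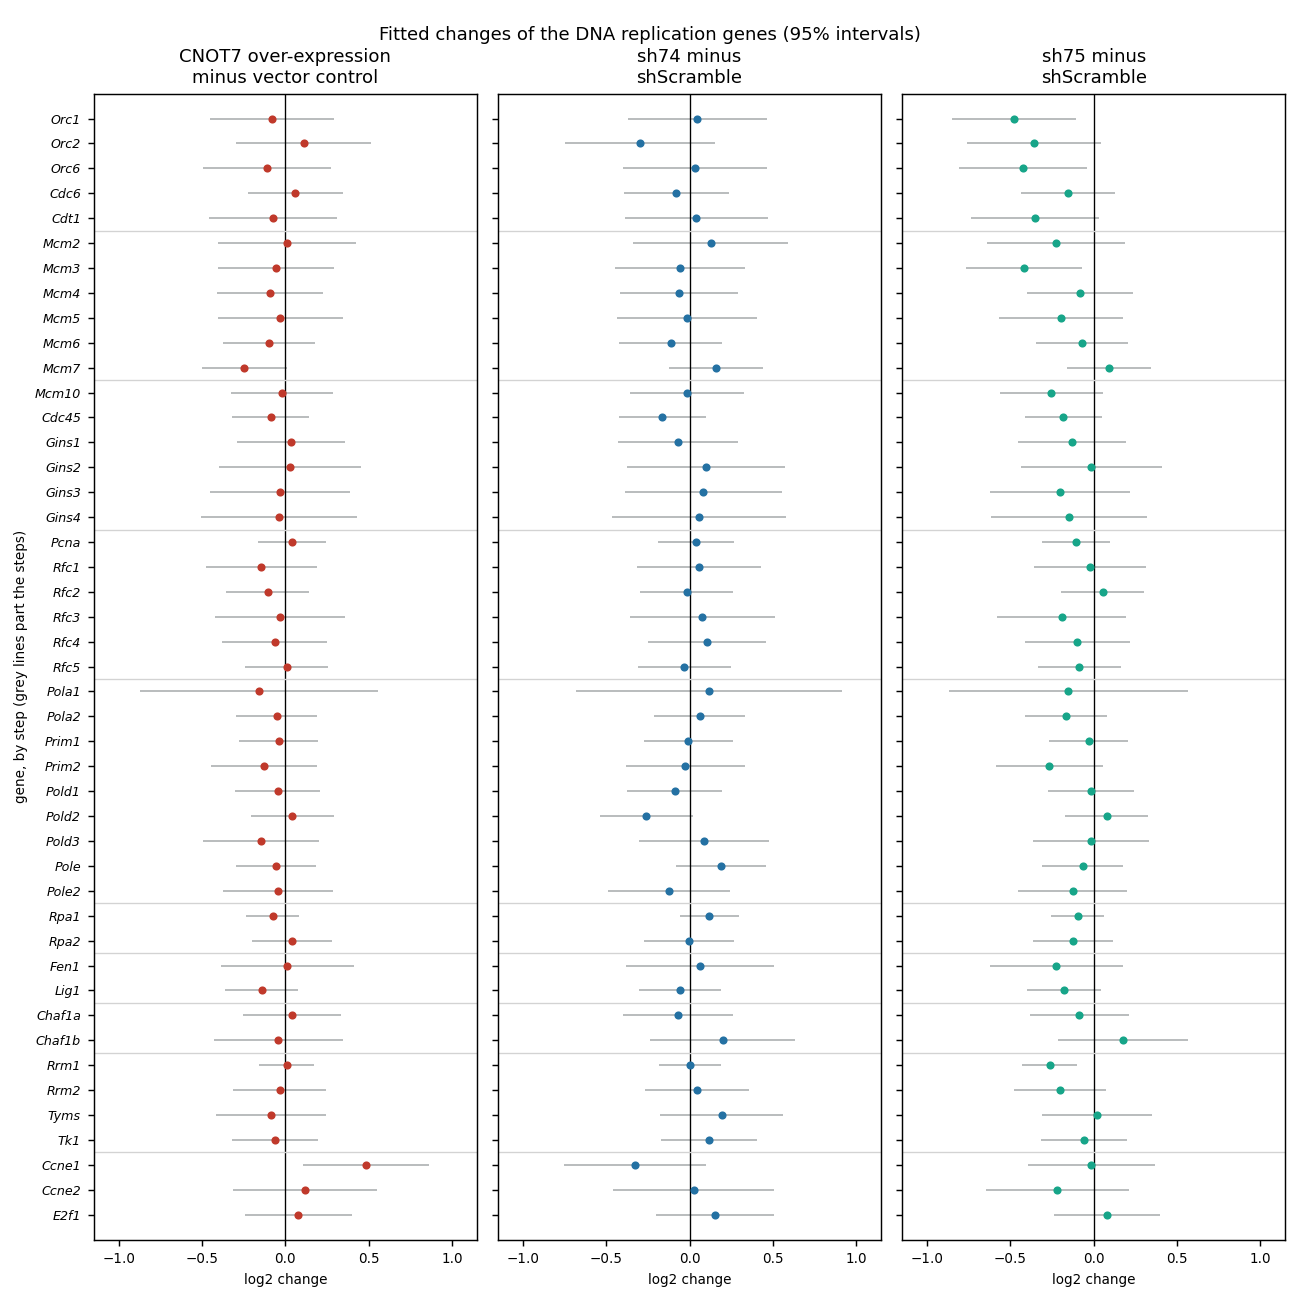
Fitted log2 changes of the 45 genes, by step, for over-expression minus vector control, sh74 minus shScramble and sh75 minus shScramble. Points are limma estimates and grey bars their 95% intervals. The top rows, the origin recognition and loader genes, lie left of 0 with sh75 and none of the intervals reaches -1 or 1.

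Origin recognition and loader genes lay lowest with sh75. All 5 were lower than with shScramble, with a median of -0.36, against 2 of 5 lower and a median of 0.03 with sh74, and 3 of 5 lower and a median of -0.07 with over-expression. Vector control cells, which carried no hairpin, also had 4 of 5 lower than shScramble, with a median of -0.24. Orc1, the ATPase subunit of the origin recognition complex, read 7.28 and 7.62 with sh74 and 7.13, 6.68 and 6.97 with sh75, against 7.60, 7.57 and 7.04 with shScramble. Its sh75 values overlapped the control through shScramble replicate 3, and the change of -0.48 (SE 0.17) did not pass (adjusted p = 0.479), nor did that of 0.05 (SE 0.19) with sh74. Orc1 read 7.09, 7.27 and 6.86 in over-expressing cells, against 7.23, 7.08 and 7.14 in vector control cells, a change of -0.08.

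Orc6, another subunit of that complex, read 9.93 and 10.46 with sh74 and 9.68, 9.69 and 9.83 with sh75, against 10.30, 10.18 and 10.00 with shScramble. The sh75 samples sat together below all controls, while sh74 replicate 2 was the highest of the 14 samples, and the changes were -0.42 (SE 0.18) with sh75 (adjusted p = 0.568) and 0.03 (SE 0.20) with sh74. Orc6 read 10.12, 9.57 and 9.62 in over-expressing cells, against 9.76, 10.14 and 9.73 in vector control cells, with the groups overlapping and a change of -0.11. Cdt1, which brings MCM complexes to origins, read 10.33 and 10.89 with sh74 and 10.28, 10.21 and 10.16 with sh75, against 10.58, 10.65 and 10.49 with shScramble. Here too the sh75 samples lay below all controls with little spread, the mean being 10.22 ± 0.06 with sh75 and 10.57 ± 0.08 with shScramble (SD, n = 3 each), and the change was -0.35 (SE 0.17, adjusted p = 0.645). Cdt1 read 10.72, 10.25 and 10.05 in over-expressing cells, against 10.29, 10.63 and 10.32 in vector control cells, a span that covers all other samples but 1.

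Orc2, the scaffold subunit partnered with Orc3, read 8.69 and 9.35 with sh74 and 8.91, 8.78 and 9.18 with sh75, against 9.33, 9.44 and 9.17 with shScramble. Its fitted changes were close for both hairpins, -0.36 (SE 0.18) with sh75 and -0.30 (SE 0.20) with sh74, but the sh74 value rested on replicate 1, the lowest of the 14 samples, and was 0.03 without it. Orc2 read 9.46, 9.48 and 9.37 in over-expressing cells, against 9.63, 9.00 and 9.35 in vector control cells. Cdc6, the ATPase that loads MCM rings together with the origin complex, had changes of -0.15 with sh75, -0.08 with sh74 and 0.06 with over-expression, within a range from 7.78 to 8.32 over all samples.

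**Figure D4:**
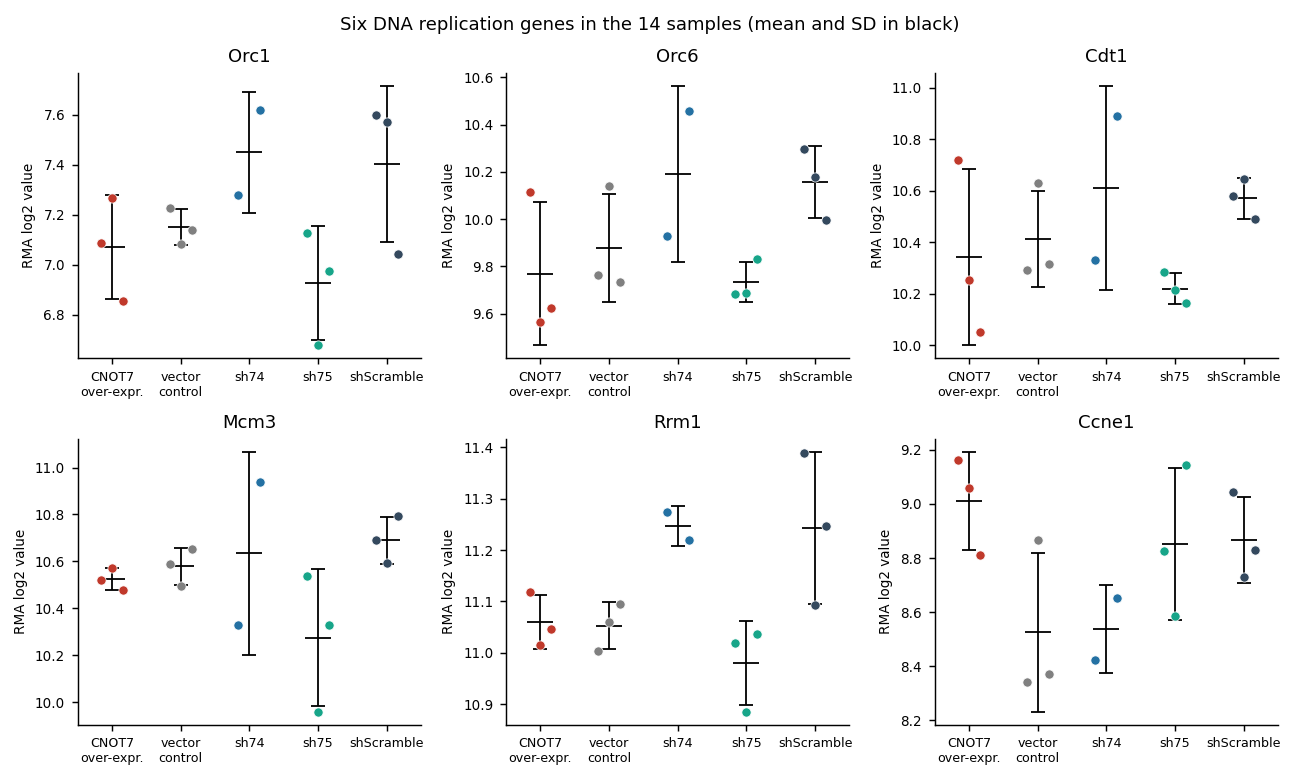
RMA log2 values of Orc1, Orc6, Cdt1, Mcm3, Rrm1 and Ccne1 for each of the 14 samples, arranged by group. Dots are single samples, and the bars in black mark mean and SD. The sh75 samples lie below the shScramble samples for Orc6, Cdt1, Mcm3 and Rrm1, and the over-expression mean of Ccne1 is the highest of the 5 groups.

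The MCM genes encode the hexameric ring that unwinds DNA. With sh75, 5 of 6 were lower than with shScramble, with a median of -0.14, against 4 of 6 and -0.04 with sh74, and 5 of 6 and -0.07 with over-expression. Mcm3 read 10.33 and 10.94 with sh74 and 10.54, 9.96 and 10.33 with sh75, against 10.69, 10.59 and 10.79 with shScramble. The sh75 samples lay below all controls, with replicate 2 the lowest of the 14 samples, and the change was -0.42 (SE 0.16, adjusted p = 0.512). Without that sample it was -0.26. Replicate 2 of sh74 was the highest of the 14, the sh74 change was -0.06 (SE 0.18), and Mcm3 read 10.52, 10.57 and 10.48 in over-expressing cells, against 10.59, 10.49 and 10.65 in vector control cells.

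Mcm7 was nearer its control with the hairpins than with over-expression. It read 10.96, 10.60 and 10.66 in over-expressing cells, against 10.81, 11.06 and 11.08 in vector control cells. Its change of -0.24 (SE 0.11) with over-expression (adjusted p = 0.9999) was the lowest fitted value of the 45 genes there, with replicate 1 of the over-expressing cells overlapping the controls. Mcm7 read 11.23 and 11.17 with sh74 and 11.25, 11.01 and 11.14 with sh75, against 10.98, 10.94 and 11.20 with shScramble, with changes of 0.09 with sh75 and 0.16 with sh74. The over-expression change minus the mean knockdown change of Mcm7 was -0.37 (SE 0.15, adjusted p = 0.9996). The changes of the rest with sh75, sh74 and over-expression were -0.23, 0.13 and 0.01 for Mcm2, -0.08, -0.06 and -0.09 for Mcm4, -0.20, -0.01 and -0.03 for Mcm5, and -0.07, -0.11 and -0.10 for Mcm6. Mcm7 was the only subunit with positive fitted values for both hairpins.

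The promoters of these genes were set beside the values because genes of one program often share them. Windows from 250 bases before to 50 bases after each annotated start (RefSeq, GRCm38.p6) were found for 37 of the 45 genes and for 15614 genes of the array. An E2F motif was any of TTTCCCGC, TTTCGCGC, TTTGCCGC or TTTGGCGC on either strand. It stood in the windows of 14 of the 37 genes (37.8%), each counted once even with several starts, against 543 of 15614 (3.48%). At least 2 motifs, overlapping ones counted, stood in 5 of 37 (13.5%), against 0.154%. In Cdt1, Lig1, Mcm3, Pold1, Pold3 and Pole2 the motifs lay only after the annotated start. Windows of 4 of 5 MCM genes, each with at least 2 motifs, and 3 of 5 origin and loader genes held an E2F motif, but those of 0 of 4 nucleotide supply genes. CCAAT stood in 22 of 37 (59.5%), against 41.7%, and the CHR motifs TTTGAA or TTCGAA in 7 of 37 (18.9%), against 19%.

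Parts of 6 windows, which lie before the start except that of Orc1, which runs a few bases past it, from origin, MCM, helicase and polymerase genes, are shown to give the letters behind these counts, with E2F motifs in capitals, each 5′ to 3′ on the strand of the gene.
Orc1, chr4:108579401-108579460 (plus strand): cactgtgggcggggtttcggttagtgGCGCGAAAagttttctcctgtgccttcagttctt
Cdc6, chr11:98907987-98908046 (plus strand): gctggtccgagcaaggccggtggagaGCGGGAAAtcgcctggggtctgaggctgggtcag
Mcm5, chr8:75109334-75109393 (plus strand): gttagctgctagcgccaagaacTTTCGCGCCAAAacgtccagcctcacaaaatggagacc
Mcm6, chr1:128359719-128359778 (minus strand): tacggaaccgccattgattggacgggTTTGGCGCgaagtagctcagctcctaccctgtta
Gins3, chr8:95633492-95633551 (plus strand): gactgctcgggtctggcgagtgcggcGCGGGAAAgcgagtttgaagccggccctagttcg
Pola1, chrX:93632260-93632319 (minus strand): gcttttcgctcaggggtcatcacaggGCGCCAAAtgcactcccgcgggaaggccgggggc

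In the Mcm5 window 2 motifs on opposite strands overlapped, whereas the others showed 1 each. Counted from the annotated start, the motif began at -27 in Orc1, -138 in Cdc6, -47 in Mcm6, -41 in Gins3 and -138 in Pola1. The 14 genes with an E2F motif had median changes of -0.17 with sh75, 0.01 with sh74 and -0.06 with over-expression. The 23 genes with a window but no motif had -0.10, 0.04 and -0.02. These shares and medians are descriptions, and a match does not show that a factor binds.

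Helicase activation genes, whose products convert the loaded ring into a moving helicase, had a median of -0.16 with sh75 (6 of 6 lower), 0.02 with sh74 (3 of 6) and -0.03 with over-expression (4 of 6). Gins3, a subunit of the GINS complex with the widest range of the step, read 9.29, 8.43 and 8.57 in over-expressing cells, against 8.84, 8.87 and 8.69 in vector control cells. Replicate 1 of the over-expressing cells was the highest and replicate 2 the lowest of all 14 samples. It read 8.74 and 9.15 with sh74 and 8.50, 8.67 and 8.81 with sh75, against 8.94, 8.87 and 8.78 with shScramble, with changes of -0.20 for sh75 and 0.08 for sh74.

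Cdc45, the helicase cofactor, read 9.05 and 9.10 with sh74 and 9.16, 8.98 and 9.03 with sh75, against 9.02, 9.26 and 9.43 with shScramble. Its changes of -0.18 (SE 0.11) with sh75 and -0.16 (SE 0.12) with sh74 were close to each other, overlapped the controls through shScramble replicate 1 and did not pass (adjusted p = 0.703 and 0.841). Cdc45 read 8.97, 9.24 and 9.12 in over-expressing cells, against 9.08, 9.28 and 9.23 in vector control cells. Mcm10, which helps start the helicase, had fitted changes of -0.25 with sh75, -0.01 with sh74 and -0.02 with over-expression. The other GINS genes had sh75, sh74 and over-expression values of -0.13, -0.07 and 0.03 for Gins1, -0.02, 0.10 and 0.03 for Gins2, and -0.15, 0.06 and -0.04 for Gins4.

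Clamp and loader genes had medians of -0.09 with sh75 (5 of 6 lower), 0.05 with sh74 (2 of 6) and -0.05 with over-expression (4 of 6). Pcna, the ring that tethers polymerases, had changes of -0.11 (SE 0.09) with sh75, 0.04 (SE 0.10) with sh74 and 0.04 (SE 0.09) with over-expression, and its second probe set gave -0.10, 0.03 and 0.04. Rfc1, the large subunit of the clamp loader, read 10.19, 9.50 and 9.63 in over-expressing cells, against 9.89, 10.01 and 9.85 in vector control cells. Over-expression replicate 1 was the highest and replicate 2 the lowest of all samples, and the change was -0.14 (SE 0.15), and ranged from -0.35 to -0.01 with 1 sample left out.

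Rfc1 read 9.86 and 10.00 with sh74 and 9.91, 9.66 and 9.98 with sh75, against 9.90, 9.93 and 9.79 with shScramble, a narrow span. Rfc3, a small loader subunit with the widest range of the step, read 8.88, 8.18 and 8.64 in over-expressing cells, against 8.45, 8.63 and 8.72 in vector control cells. It read 8.68 and 9.07 with sh74 and 8.71, 8.51 and 8.61 with sh75, against 8.84, 8.55 and 9.02 with shScramble. Its highest sample was sh74 replicate 2, its lowest over-expression replicate 2, and its changes were -0.19 with sh75, 0.08 with sh74 and -0.03 with over-expression. The small subunits Rfc2, Rfc4 and Rfc5 had changes with sh75 of 0.05, -0.10 and -0.09, with sh74 of -0.02, 0.10 and -0.03, and with over-expression of -0.11, -0.06 and 0.01.

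Polymerase and primase genes had medians of -0.07 with sh75 (8 of 9 lower), -0.01 with sh74 (5 of 9) and -0.05 with over-expression (8 of 9). Pola1, the catalytic subunit of DNA polymerase alpha, had the widest range of the 45 genes, 1.42 against a median range of 0.65, and read 9.26, 8.14 and 9.04 in over-expressing cells, against 9.20, 8.56 and 9.16 in vector control cells. It read 9.56 and 8.72 with sh74 and 8.72, 8.85 and 9.05 with sh75, against 9.07, 8.58 and 9.43 with shScramble. High and low samples occurred in every group but sh75, so the changes of -0.16 (SE 0.33) with over-expression, 0.12 (SE 0.36) with sh74 and -0.15 (SE 0.33) with sh75 had the largest errors of the 45. Pola1 was the only one of the 45 with a range of at least 1, which 16.1% of all genes reached.

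Pold2, an accessory subunit of polymerase delta, read 9.96 and 10.10 with sh74 and 10.49, 10.21 and 10.39 with sh75, against 10.20, 10.20 and 10.47 with shScramble. Both sh74 samples lay below all controls, and the change was -0.26 (SE 0.13, adjusted p = 0.71), against 0.08 (SE 0.11) with sh75. Pold2 read 10.36, 10.54 and 10.40 in over-expressing cells, against 10.42, 10.19 and 10.56 in vector control cells. Pold3, a further delta subunit, read 9.32, 9.06 and 8.76 in over-expressing cells, against 9.26, 9.08 and 9.24 in vector control cells, with the lowest of the 14 samples in over-expression replicate 3.

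Without that sample the over-expression change of Pold3, -0.15 (SE 0.16), came to 0.00. Pold3 read 9.06 and 9.45 with sh74 and 9.44, 8.97 and 9.04 with sh75, against 9.16, 9.10 and 9.25 with shScramble. Pole, the catalytic subunit of the leading-strand polymerase epsilon, read 10.19 and 10.06 with sh74 and 9.85, 9.84 and 9.92 with sh75, against 9.89, 9.89 and 10.04 with shScramble. The sh74 samples were the highest 2 of the 14, with a change of 0.19 (SE 0.12, adjusted p = 0.806), and the sh75 change was -0.07. Pole read 9.82, 9.37 and 9.78 in over-expressing cells, against 9.60, 9.82 and 9.71 in vector control cells.

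The polymerase alpha partner Pola2 had changes of -0.16 with sh75, 0.06 with sh74 and -0.05 with over-expression. The primase genes had -0.03, -0.01 and -0.04 for the catalytic Prim1 and -0.27, -0.02 and -0.13 for the large subunit Prim2. The catalytic delta subunit Pold1 had -0.02, -0.09 and -0.05, and the epsilon subunit Pole2 had -0.13, -0.12 and -0.04 in the same order. None of these changes passed the threshold by limma.

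Replication protein A coats unwound single strands. Its large subunit Rpa1 read 9.69 and 9.74 with sh74 and 9.65, 9.40 and 9.45 with sh75, against 9.50, 9.68 and 9.62 with shScramble. The sh74 samples lay just above all controls and sh75 replicates 2 and 3 below them, with changes of 0.12 (SE 0.08) for sh74 and -0.10 (SE 0.07) for sh75. Rpa1 read 9.47, 9.57 and 9.50 in over-expressing cells, against 9.63, 9.56 and 9.57 in vector control cells, for a change of -0.07 (SE 0.07). The middle subunit Rpa2 read 8.82 and 9.04 with sh74 and 8.89, 8.63 and 8.90 with sh75, against 9.01, 8.80 and 8.99 with shScramble. It overlapped in every comparison and read 8.78, 8.88 and 8.83 in over-expressing cells, against 8.77, 8.60 and 8.99 in vector control cells, with changes of -0.12 for sh75, 0.00 for sh74 and 0.04 for over-expression.

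Lagging-strand fragments are trimmed by Fen1 and joined by Lig1. Lig1 read 9.25, 9.27 and 9.26 in over-expressing cells, against 9.34, 9.50 and 9.37 in vector control cells. The over-expressing samples lay close together and below all vector controls, and the change was -0.14 (SE 0.10, adjusted p = 0.9999). Lig1 read 9.43 and 9.60 with sh74 and 9.58, 9.24 and 9.35 with sh75, against 9.71, 9.39 and 9.60 with shScramble, with changes of -0.18 for sh75 and -0.06 for sh74. Fen1 read 9.26 and 9.15 with sh74 and 9.12, 8.56 and 9.07 with sh75, against 9.41, 9.16 and 8.86 with shScramble. Its lowest sample was again sh75 replicate 2, and the sh75 change was -0.23 (SE 0.18), the sh74 change 0.06 and the over-expression change 0.01, from 9.34, 9.16 and 8.81 in over-expressing cells, against 9.18, 8.96 and 9.14 in vector control cells.

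CAF-1 places histones on new DNA. Its subunit Chaf1b read 9.79 and 9.83 with sh74 and 9.99, 9.64 and 9.73 with sh75, against 9.53, 9.46 and 9.83 with shScramble. Chaf1b had the highest fitted change of the 45 genes with sh75, 0.18 (SE 0.18), and with sh74, 0.20 (SE 0.20), with both groups overlapping the control. It read 9.64, 9.79 and 9.20 in over-expressing cells, against 9.30, 9.87 and 9.58 in vector control cells, a change of -0.04. The large subunit Chaf1a had -0.09 with sh75, -0.07 with sh74 and 0.04 with over-expression.

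Among the genes that supply nucleotides, Rrm1, the large subunit of ribonucleotide reductase, gave the smallest p of the 45 genes with sh75. Rrm1 read 11.27 and 11.22 with sh74 and 11.02, 10.89 and 11.04 with sh75, against 11.39, 11.09 and 11.25 with shScramble. All sh75 samples lay below all controls, and the change was -0.26 (SE 0.08), with a 95% interval -0.43 to -0.10, but did not pass (adjusted p = 0.362), while the sh74 change was 0.00 (SE 0.08). Rrm1 read 11.12, 11.02 and 11.05 in over-expressing cells, against 11.00, 11.06 and 11.09 in vector control cells, a change of 0.01 (SE 0.08).

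Rrm2, the small subunit whose level limits the enzyme in S phase, had -0.20 (SE 0.13) with sh75, 0.04 (SE 0.14) with sh74 and -0.03 (SE 0.13) with over-expression, and its lowest sample was sh75 replicate 2 at 10.74. Tyms, which makes thymidylate, read 9.85, 9.12 and 9.62 in over-expressing cells, against 9.58, 9.59 and 9.67 in vector control cells. The highest and the lowest of its 14 samples were both in the over-expression group. Tyms read 9.57 and 9.72 with sh74 and 9.62, 9.36 and 9.43 with sh75, against 9.50, 9.36 and 9.50 with shScramble, with changes of 0.02 for sh75 and 0.19 for sh74. The salvage kinase Tk1 had -0.06 with sh75, 0.12 with sh74 and -0.06 with over-expression, and its second probe set -0.09, 0.17 and -0.15.

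Of the G1/S regulators 0 of 3 were lower with over-expression (median 0.12), 1 of 3 with sh74 (0.02) and 2 of 3 with sh75 (-0.02). Ccne1, the cyclin that activates Cdk2 before S phase, read 9.16, 9.06 and 8.81 in over-expressing cells, against 8.34, 8.87 and 8.37 in vector control cells. Its change of 0.48 (SE 0.17), with a 95% interval 0.10 to 0.86 and a fold of 1.40, was the highest of the 45 genes, but vector control replicate 2 overlapped the over-expressing samples and the change did not pass (adjusted p = 0.9999). Ccne1 read 8.42 and 8.65 with sh74 and 8.83, 8.58 and 9.14 with sh75, against 9.04, 8.73 and 8.83 with shScramble. Both sh74 samples lay below all controls, for a change of -0.33 (SE 0.19, adjusted p = 0.787), against -0.02 (SE 0.17) with sh75.

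The over-expression change minus the mean knockdown change of Ccne1 was 0.66 (SE 0.23), the highest of the 45 (adjusted p = 0.9996). Its vector control samples themselves differed from shScramble by -0.34 (SE 0.17). Ccne2, the second E-type cyclin, read 8.19, 7.82 and 7.58 in over-expressing cells, against 8.0, 7.30 and 7.93 in vector control cells. It read 8.26 and 8.09 with sh74 and 7.89, 7.75 and 8.15 with sh75, against 8.26, 8.15 and 8.04 with shScramble, with changes of 0.12 for over-expression, 0.02 for sh74 and -0.22 for sh75. E2f1, the transcription factor that drives S-phase genes, had 0.08 with over-expression, 0.15 with sh74 and 0.08 with sh75.

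Whether the hairpins differed was asked directly. Cnot7 itself was higher with sh74 than with sh75 by 0.98 (SE 0.29, limma adjusted p = 0.279). Hairpin and depth of knockdown therefore cannot be told apart in this comparison. With sh74 minus sh75, 5 of 45 genes were lower, with a median of 0.14, beside 49.2% of all probe sets lower and a median near 0, and 0 of 45 passed, beside 0.174% called. At an unadjusted p under 0.05 there were 5 genes, beside 8.93% of probe sets. They were Rrm1 at 0.27 (SE 0.08), Orc1 at 0.52 (SE 0.19), Orc6 at 0.46 (SE 0.20), Rpa1 at 0.22 (SE 0.08) and, in the other direction, Pold2 at -0.34 (SE 0.13), with adjusted p from 0.333 to 0.523. All 5 origin and loader genes, all 6 helicase activation genes and all 4 nucleotide supply genes had positive values. Without sh74 replicate 2 the median was 0.01 with 19 of 45 lower, and without sh74 replicate 1 it was 0.24.

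The controls, which carry different vectors under different antibiotics, were set against each other in the same way. In vector control minus shScramble, 34 of 45 genes were lower, with a median of -0.07, beside 52.3% of all probe sets lower, and 0 passed, beside 0% called. At an unadjusted p under 0.05 there were 2, Rrm1 at -0.19 (SE 0.08) and Pcna at -0.22 (SE 0.09), beside 3.7% of probe sets. That median lay about as far from 0 as the -0.06 of both hairpins. In the over-expression change minus the mean knockdown change, 18 of 45 were lower, with a median of 0.03, beside 48.2% of all probe sets, and 0 passed, beside 0% called. Ccne1 and Mcm7 were the 2 genes at an unadjusted p under 0.05, beside 3.49% of probe sets.

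The rest of the pathway was read from lists of other genes. Single genes are named because they were among the 3 of their list with the smallest unadjusted p by limma in a comparison with control. Their values are thus extremes of a list and not typical of it. Among 14 other licensing and firing genes, 8 were lower with sh75 (median -0.09), 7 with sh74 (0.02) and 9 with over-expression (-0.06). By limma 0 passed in each, and at an unadjusted p under 0.05 there were 3 with sh75, 1 with sh74 and 0 with over-expression, beside 8.26%, 7.33% and 2.58% of all probe sets. Orc3, another origin recognition subunit, had -0.31 with sh75, Mcm8 -0.42, and Mcm9, its partner in recombination repair, 0.35 with sh75, 0.44 with sh74 and -0.22 with over-expression. Among 25 other fork and polymerase genes, 21 were lower with sh75 (median -0.12), 11 with sh74 (0.03) and 15 with over-expression (-0.05). None passed (limma, 0 of 25), and at an unadjusted p under 0.05 there were 4, 2 and 1, beside the same shares of all probe sets (8.26%, 7.33% and 2.58%). The histone chaperone Asf1a had 0.26 and the small polymerase subunits Pole3 and Pold4 -0.37 and -0.61 with sh75, and the fork protein Timeless -0.25 with over-expression. With sh74 Pold4 went the other way, at 0.45, the highest value of its list.

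Of 11 other nucleotide supply genes, 11 were lower with sh75 (median -0.14), 9 with sh74 (-0.13) and 8 with over-expression (-0.05). At an unadjusted p under 0.05 there were 2, 2 and 0, beside 8.26%, 7.33% and 2.58% of all probe sets, and by limma 0 passed. Rrm2b, the p53-induced reductase subunit, had -0.18 with sh75 and -0.57 with sh74, the pyrophosphatase Dctpp1 -0.45 and -0.63, and the CTP synthase Ctps -0.63 with sh75. Of 23 other E2F, Rb and cyclin genes, 11 were lower with sh75 (0.01), 4 with sh74 (0.16) and 7 with over-expression (0.03). By limma 0 passed, and 5, 4 and 0 had an unadjusted p under 0.05, beside those same shares. Cdk6, the partner of D-type cyclins, had -0.72 with sh75. With sh74 it was not lowered, at 10.57 and 10.37 against 10.44, 10.36 and 9.94 with shScramble, and was higher by 0.95 than with sh75. Ccnd3, a D-type cyclin, had 0.50 with sh75 and 0.58 with sh74.

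Genes of mitosis, the next phase of the cycle, gave 26 of 29 lower with sh75 (median -0.18), 14 with sh74 (0.01) and 9 with over-expression (0.05). By limma 0 passed, and 5, 3 and 0 had an unadjusted p under 0.05, beside 8.26%, 7.33% and 2.58% of all probe sets. The cytokinesis genes Kif23, Racgap1 and Anln had -0.57, -0.33 and -0.30 with sh75, of which Kif23 came nearest to the threshold (adjusted p = 0.0958). Kif23 was called between the hairpins, higher by 0.79 with sh74 than with sh75 (limma adjusted p = 0.0308). It was the 1 gene of the 29 called in that comparison, beside 0.174% of all probe sets. The mean of these 29 genes was 0.03 and 0.04 with sh74 and -0.01, -0.24 and -0.09 with sh75, against 0.00, 0.04 and 0.10 with shScramble. The lowest sample was again sh75 replicate 2, as it was for the mean of the 25 other fork and polymerase genes, at -0.24.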

How the data were processed

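RNA of 14 samples was hybridized to Mouse Gene 1.0 ST arrays from Affymetrix. Per the labels, the authors processed them by RMA in the R package oligo (background correction, normalization across arrays and probe-set summary) and deposited log2 values, which were used as deposited. Versions and the annotation build were not given in the sources used here. Of 35556 probe sets, 21789 paired with exactly 1 gene symbol in the platform annotation and covered 19938 genes. Probe sets with several symbols (1621) or none (12146) were not used, which left Cdkn1a out of the pathway lists, and a few other listed genes are not reported here.

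A linear model of 5 group means was fitted to all probe sets with limma 3.58.1 under R 4.3.3, by lmFit followed by eBayes. It had 9 residual degrees of freedom and 2.09 from the prior. All tests were two-sided, with Benjamini-Hochberg adjustment within a comparison and calls at adjusted p under 0.05. The fit was tested on simulated data. The number of arrays limits the precision. Members and lists were chosen with earlier results of these data known. Values in every sample were given for the 6 genes with the smallest p in each of over-expression, sh74 and sh75 against control and for the gene with the widest range in each step. Alternatives used other probe set rules, filters, scaling, samples, variance models and tests, and left out each sample in turn.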

Additional observations from a re-analysis of the deposited data

How the results depend on the processing

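No DNA replication gene was called under any alternative that was run: the mean of all probe sets of a gene, dim probe sets left out, arrays shifted to the same median, only the groups compared, eBayes with trend and robust settings, a plain equal-variance two-group test, the title number as a block, and each sample left out. The plain test and the fit to only the groups compared were not run for the over-expression change minus the mean knockdown change, and the block was fitted for sh75 alone. At an unadjusted p under 0.05 the plain test singled out 2 genes with over-expression, 2 with sh75, 0 with sh74, 0 with both hairpins pooled, 2 between the hairpins and 2 between the controls. These counts have no share of all probe sets in that test beside them.

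The median changes kept their sign under the other probe set rule, filter, scaling and block. With a sample left out they ranged from -0.09 to 0.00 for over-expression, -0.17 to -0.05 for sh75, -0.11 to 0.12 for sh74, -0.12 to -0.02 for both hairpins, 0.014 to 0.24 for sh74 minus sh75, -0.11 to -0.06 for vector control minus shScramble and -0.04 to 0.11 for the over-expression minus mean knockdown change. The cause was not tested. Among named genes, Orc2 with sh74 turned to 0.034 without sh74 replicate 1, and was -0.63 without replicate 2.

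The Cnot7 change with sh75 was no longer called with only the groups compared (-2.29), in the plain test (-2.29) or with the replicate block (-2.24, adjusted p = 0.262). With a sample left out it ranged from -2.53 to -2.03, and the call was lost without shScramble replicate 1 (-2.23, adjusted p = 0.0546) or replicate 2 (-2.29, adjusted p = 0.0545). For both hairpins it was -1.80 (adjusted p = 0.05, just under the threshold), and it was no longer called with only the groups compared (-1.80) or in the plain test (-1.90). That plain test pooled the sh74 and sh75 samples as 1 group, whereas the limma value weights the hairpins equally. With a sample left out the limma value for both hairpins ranged from -1.95 to -1.64, and the call held only without sh74 replicate 2 or sh75 replicate 2. With over-expression the change of Cnot7 turned to 0.00 (-0.0013) when arrays were shifted, and ranged from -0.20 to 0.14 with a sample left out.

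Whether the numbers in the sample titles pair the samples was not settled. Of 13 pairs of samples from different groups with the same number, 8 had a correlation of their deviations of at most 0.1. The rest lay between 0.36 and 0.59. Among them were sh75 replicate 2 with shScramble replicate 3 (0.59) and sh75 replicate 1 with shScramble replicate 2 (0.41). Pairs with different numbers are not given for comparison. With the title number as a block, sh75 minus shScramble had 5 residual degrees of freedom, 0 genes called and a median of -0.13, and 35 of 45 genes were lower. The other comparisons could not be fitted with it.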
